A study of Mus musculus with 10 samples.

Results

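The 9 genes described here encode enzymes, or parts of enzymes, that produce superoxide: xanthine dehydrogenase (Xdh), the aldehyde oxidases Aox1 and Aox3, and the NADPH oxidase genes Cybb, Cyba, Ncf1, Ncf4, Nox4 and Rac2. They were taken by name, each at the transcript cluster (a group of array probes for 1 transcript region) annotated with that single symbol, and make up 9 of the 22180 genes measured. Each of the 9 had 1 such cluster, and all 9 lay above the level filter that left 13308 genes for testing. Levels are log2 expression values, so that a difference of 1 is a doubling. They can be compared between livers for 1 gene, and not between genes.

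The livers came from male mice aged 4 weeks, with 1 whole-transcript Affymetrix array for each of 10 liver samples, called livers from here on. All mice had Rosa26-rtTA, a doxycycline-dependent activator placed in the broadly active Rosa26 locus, and all dams received doxycycline chow at 625 mg/kg. In 3 livers (shRNA 1) and 3 others (shRNA 2) the activator could drive a hairpin RNA against Sod2, the mitochondrial superoxide dismutase, during embryonic days 0 to 12.5, and 4 livers from littermates had rtTA only. The 6 hairpin livers together are called adapted, as in the labels. The labels place 3 controls in the shRNA 2 cohort and 1 in the shRNA 1 cohort without naming them, so hairpin and cohort cannot be told apart. Nor do the labels say which samples are different animals. The p-values therefore cover only the spread of these samples, which may be technical in part.

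Superoxide is oxygen with 1 extra electron. Xanthine dehydrogenase and the aldehyde oxidases are large enzymes that hold molybdenum, iron-sulfur clusters and a flavin. In liver the first makes urate from purines and the others oxidise aldehydes and many drugs, and each can pass electrons to oxygen. The phagocyte NADPH oxidase makes superoxide on purpose, to kill microbes, and in liver its subunits are best known from Kupffer cells and other leukocytes. Superoxide dismutases turn superoxide into hydrogen peroxide.

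As a check of the setting, Sod2 itself ranged over log2 10.33 to 10.49 in controls, 10.32 to 10.43 in shRNA 1 livers and 10.24 to 10.47 in shRNA 2 livers at this age, long after the doxycycline window. The median level of an array was log2 4.06 to 4.17. Correlations between any 2 arrays, over all clusters, were 0.979 to 0.986. Hepatocyte markers were all present, with Alb, serum albumin, at log2 13.70 to 13.82, and 0 of 10 passed the test in any comparison.

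The start regions of 3 members are shown. Aox1 and Aox3 are neighbours on chromosome 1 with different orders of the groups, and Cybb is the catalytic subunit of the phagocyte enzyme. The regions are the 250 bases before the RefSeq start in GRCm38.p6, in the direction of the gene, at chr1:58029719-58029968 (plus strand) for Aox1, chr1:58112886-58113135 (plus strand) for Aox3 and chrX:9469325-9469574 (minus strand) for Cybb. RefSeq windows were matched for 6 of the 9 members, and none was available for Xdh, Ncf4 or Rac2. Capitals mark matches, on either strand, to any of 5 short motifs.
Aox1: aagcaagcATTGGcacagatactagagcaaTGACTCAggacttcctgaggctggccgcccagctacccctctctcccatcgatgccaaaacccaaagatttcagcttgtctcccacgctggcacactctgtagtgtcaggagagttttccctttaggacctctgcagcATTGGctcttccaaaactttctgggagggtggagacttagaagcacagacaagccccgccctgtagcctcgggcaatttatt
Aox3: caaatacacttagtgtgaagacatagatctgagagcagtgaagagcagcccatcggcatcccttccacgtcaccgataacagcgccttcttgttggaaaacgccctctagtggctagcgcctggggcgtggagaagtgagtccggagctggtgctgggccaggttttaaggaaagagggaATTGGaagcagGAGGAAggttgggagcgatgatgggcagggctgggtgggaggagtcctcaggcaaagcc
Cybb: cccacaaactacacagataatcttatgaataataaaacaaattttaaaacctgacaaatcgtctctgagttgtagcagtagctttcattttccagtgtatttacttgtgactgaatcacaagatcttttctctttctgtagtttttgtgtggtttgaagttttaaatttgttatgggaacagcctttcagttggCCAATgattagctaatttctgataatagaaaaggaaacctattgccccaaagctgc

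The motifs were the antioxidant response element core TGANNNNGC, the PU.1 core GAGGAA, the E-box CACGTG, the AP-1 site TGACTCA and the CCAAT box. The last pair were added after the sequences had been read. Aox1 held an AP-1 match from base -220 to -214 and CCAAT matches on the opposite strand starting at -242 and -82. Aox3 held a PU.1 core from -59 to -54 and a CCAAT match on the opposite strand starting at -70. Cybb held a CCAAT match from -56 to -52. Among all 32851 RefSeq windows of 250 bases, 4.46% held the AP-1 site, 23.3% the PU.1 core and 33.8% the CCAAT box. The antioxidant response element core and the E-box, present in 35.2% and 6.02% of all windows, had no match in the 6 members' windows. The windows of Cyba, Ncf1 and Nox4 held no match to any of the 5 motifs. These matches describe letters, not bound sites.

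Xdh was higher in every shRNA 1 liver than in every other liver. Its levels were log2 9.11, 9.14 and 9.07 in shRNA 1 livers, 8.26, 8.51, 8.47 and 8.61 in controls, and 8.54, 8.46 and 8.40 in shRNA 2 livers. The shRNA 1 values lay close together and left a gap of 0.46 to the highest control, while shRNA 2 livers lay within the range of the controls. The shRNA 1 mean was 9.11 ± 0.03 (SD, n = 3) against 8.47 ± 0.15 (SD, n = 4) in controls, a difference of +0.64 (standard error 0.10) or 1.56-fold (95% interval 1.35 to 1.81). In limma, which tests all genes together with Benjamini-Hochberg adjustment, the adjusted p was 0.0525, which missed the threshold of 0.05, and Xdh ranked 6 of 13308 by p. The call was made in 5 of 19 alternative analyses, among them a prior that follows intensity and is robust to outliers (adjusted p = 0.0150) and the fit without control replicate 4 (+0.69, adjusted p = 0.0407), with a range over the alternatives of 0.0150 to 0.243. The exact two-sided permutation p was 0.0286, the smallest that 35 splits can give, 1 of 36 such unadjusted tests made on the members.

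The difference between the lines was tested directly. Xdh was 0.64 higher in shRNA 1 than in shRNA 2 livers on the log2 scale (standard error 0.10, 1.56-fold, 95% interval 1.33 to 1.82), at an adjusted p in limma of 0.0971, or 0.0331 with the prior that follows intensity. The exact permutation p was 0.1, the smallest that 3 against 3 allows. For shRNA 2 minus control the difference was 0.00 (95% interval -0.21 to 0.21). The adapted mean over both lines, +0.32 with an adjusted p of 0.312, was therefore the average of a line at +0.64 and a line at 0.00, and 3 of 6 adapted livers lay above all controls.

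Hepatocytes and, in mice, endothelial cells are known to hold Xdh, so cell type markers were read beside it. The summed linear level of 10 hepatocyte markers was 72396 to 74613 in controls, 74900 to 77308 in shRNA 1 livers and 72011 to 74336 in shRNA 2 livers. For 9 sinusoidal endothelium markers it was 3854 to 4179, 4357 to 4428 and 3925 to 4121. For 5 biliary markers it was 116 to 134, 92.7 to 107.5 and 107 to 116. The shRNA 1 livers thus lay above all others in the first pair of sums, and below all controls in the third. As mean log2 relative to the control mean, shRNA 1 livers overlapped controls for hepatocyte markers (0.007 to 0.059 against -0.033 to 0.033). The same held for endothelium markers (0.085 to 0.160 against -0.061 to 0.091), but not for biliary markers (-0.249 to -0.227 against -0.067 to 0.083). The biliary sums and means include Krt19 and Cldn7, which lay below the level filter and were not tested. Of 10 hepatocyte markers 6 were above 0 in shRNA 1 minus control, against 52.4% of all genes tested. They ran from Fgb at -0.15 and Hnf4a at -0.13 to Tat at +0.54. Of 3 tested biliary markers, Sox9 was at -0.58 and Krt7, the only 1 above 0, at +0.16. In limma 0 of the tested markers of these lists (10, 9 and 3 genes) passed, and their median differences in shRNA 1 minus control were +0.02, +0.10 and -0.21. Their part in the Xdh values was not tested.

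**Figure D1:**
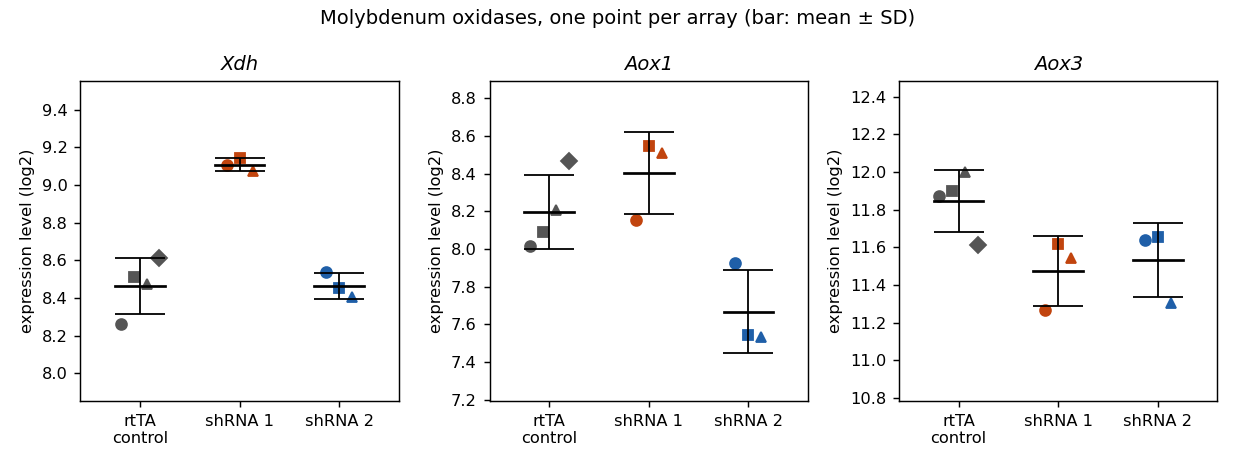
Expression levels (log2) of Xdh, Aox1 and Aox3 in rtTA control (n = 4), shRNA 1 (n = 3) and shRNA 2 (n = 3) livers; points are arrays, with marker shapes for replicate numbers, and black bars are mean ± SD. The 3 shRNA 1 points for Xdh lie between 9.07 and 9.14, above all others, and the 3 shRNA 2 points for Aox1 lie below all others.

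Aox1, an aldehyde oxidase, was lowest in shRNA 2 livers, at log2 7.92, 7.55 and 7.53. Controls were at 8.02, 8.09, 8.21 and 8.47 and shRNA 1 livers at 8.16, 8.55 and 8.51. All 3 shRNA 2 livers lay below all controls, by a gap of only 0.09, whereas shRNA 1 livers overlapped the controls and had the highest mean. The order of means was shRNA 1 (8.40 ± 0.22, SD, n = 3), control (8.20 ± 0.20, SD, n = 4) and shRNA 2 (7.67 ± 0.22, SD, n = 3), with the first pair within their spread. The shRNA 2 minus control difference was -0.53 (standard error 0.14, 0.694-fold, 95% interval 0.557 to 0.864), and the adjusted p in limma was 0.564. The exact permutation p was 0.0286. For shRNA 1 minus control it was +0.21 (95% interval -0.11 to 0.52, adjusted p = 0.781 in limma). Set against each other, shRNA 1 livers were higher than shRNA 2 livers by 0.74 (standard error 0.15, 1.67-fold, adjusted p = 0.299 in limma), in 3 of 3 livers against all 3. Over both lines the mean difference from control was -0.16 (adjusted p = 0.776 in limma), and without control replicate 4 it was -0.07.

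Aox3, the other aldehyde oxidase with a clear liver signal, had lower means in both lines. It stood at log2 11.27, 11.62 and 11.54 in shRNA 1 livers and 11.64, 11.65 and 11.30 in shRNA 2 livers. Controls were at 11.87, 11.90, 12.00 and 11.61. All 6 adapted livers were below controls 1 to 3, but control replicate 4 fell among them, so that 3 of 6 were below every control. The adapted minus control difference was -0.34 (standard error 0.11, 0.789-fold, 95% interval 0.668 to 0.932), and the adjusted p in limma was 0.433. The exact permutation p was 0.0286, where 210 splits allow 0.00476. Leaving out 1 liver at a time gave -0.42 to -0.28. By line the differences, which share the controls, were -0.37 for shRNA 1 and -0.31 for shRNA 2, the latter -0.20 without shRNA 2 replicate 3. The difference between the lines was -0.06, with a 95% interval of -0.36 to 0.25.

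Aox1 and Aox3 were also set against each other within each liver, as Aox1 minus Aox3 relative to the mean of the controls. This value was 0.54, 0.58 and 0.62 in shRNA 1 livers and -0.06, -0.46 and -0.12 in shRNA 2 livers. In controls it was -0.21, -0.16, -0.14 and 0.51. The shRNA 1 livers lay above all others, with control replicate 4 close behind. The exact two-sided permutation p was 0.0571 for shRNA 1 against control and 0.571 for shRNA 2 against control. It was 0.1, the smallest possible, for shRNA 1 against shRNA 2. This contrast was not among the planned tests, and its p-values are unadjusted and outside the 36 tests on single members. The Aox1 minus Aox3 value shows unequal differences of the 2 genes from their control means, not which of them differed. Aox4 and Aox2 follow Aox3 on chromosome 1. They lay below the level filter, at log2 2.48 to 2.85 and 3.14 to 3.64 in controls, and were not tested.

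**Figure D2:**
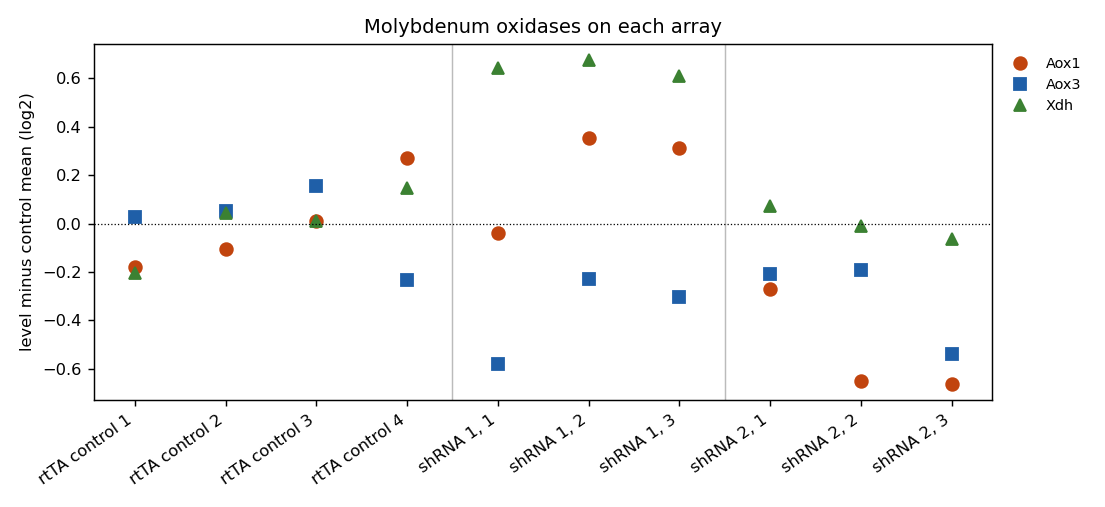
Level minus the control mean (log2) of Xdh (green triangles), Aox1 (orange circles) and Aox3 (blue squares) on each of the 10 arrays, with grey lines between rtTA control, shRNA 1 and shRNA 2 livers. Xdh reaches 0.61 to 0.68 in shRNA 1 livers, Aox3 is below 0 in all 6 hairpin livers and in control replicate 4, and Aox1 is at -0.27 to -0.66 in shRNA 2 livers.

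The phagocyte oxidase is built on cytochrome b558, a membrane pair of Cybb (gp91phox, which carries the electrons) and Cyba (p22phox, its partner, also shared by Nox4). Cybb was at log2 7.84, 7.57, 7.39 and 7.80 in controls, 7.77, 7.76 and 7.87 in shRNA 1 livers, and 7.93, 8.05 and 7.79 in shRNA 2 livers. Controls 2 and 3 were the lowest of the 10, and 3 of 6 hairpin livers were above every control. Means were 7.65 ± 0.21 (SD, n = 4), 7.80 ± 0.06 (SD, n = 3) and 7.92 ± 0.13 (SD, n = 3) in that order. Adapted minus control was +0.21 (standard error 0.10, 95% interval -0.01 to 0.43, adjusted p = 0.618 in limma), +0.15 for shRNA 1 and +0.27 for shRNA 2 (adjusted p = 0.644). Without control replicate 3 the adapted difference was +0.12 and that of shRNA 1 was +0.060. In bulk tissue more cells of a type and more RNA per cell cannot be told apart.

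Markers of Kupffer cells and other leukocytes were read beside Cybb. The summed linear level of 15 Kupffer cell and macrophage markers was 4465 to 5135 in controls, 4477 to 5092 in shRNA 1 livers and 4580 to 5808 in shRNA 2 livers. Of these 15, 0 passed in any comparison. Their median difference in shRNA 2 minus control was +0.17 with 13 of 15 above 0, against 0.00 and 51.2% over all genes tested. In shRNA 1 minus control it was +0.02 with 9 of 15 above 0, against 0.01 and 52.4% over all genes tested. For 10 pan-leukocyte markers the sums were 1183 to 1341, 1244 to 1384 and 1291 to 1396 in the same order. The median differences of these 10 were +0.02 in shRNA 1 minus control and +0.06 in shRNA 2 minus control. Of 13 neutrophil markers 10 lay below the level filter, including S100a8 at log2 2.40 to 2.81 in controls, and the sums were 173 to 210, 177 to 185 and 188 to 203. For 11 T, NK and B cell markers they were 177 to 204, 195 to 220 and 185 to 219. Of these 11, only 6 lay above the level filter and 0 passed. Their median differences were +0.26 in shRNA 1 minus control and +0.16 in shRNA 2 minus control, with 5 of 6 above 0 in each. The part of these cells in the Cybb values was not tested.

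Cyba levels were log2 6.92, 6.45, 6.69 and 6.58 in controls, 6.76, 6.49 and 6.80 in shRNA 1 livers and 6.72, 6.74 and 6.79 in shRNA 2 livers. All 6 hairpin livers lay within the range of the controls. Adapted minus control was +0.06 (95% interval -0.16 to 0.28, adjusted p = 0.923 in limma).

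**Figure D3:**
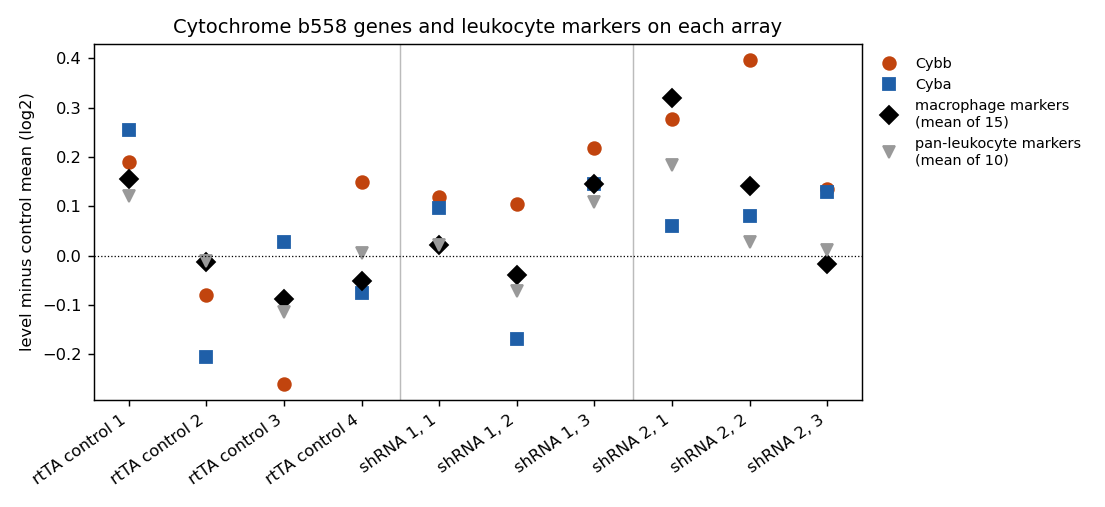
Level minus the control mean (log2) of Cybb and Cyba on each of the 10 arrays, beside the mean over 15 macrophage and 10 pan-leukocyte markers. The highest macrophage mean is that of shRNA 2 replicate 1 (0.32), the highest Cybb value that of shRNA 2 replicate 2 (0.40), and control replicate 1, shRNA 1 replicates 1 and 3 and shRNA 2 replicates 1 and 2 are above 0 for all 4 series.

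The cytosolic partners join the cytochrome when a phagocyte is triggered: Ncf1 (p47phox) organises the complex, Ncf4 (p40phox) binds phosphoinositides, and Rac2 is the small GTPase of blood cells. Ncf1 was among the more variable members, at log2 5.58, 5.90, 5.57 and 5.22 in controls, 6.18, 5.55 and 5.82 in shRNA 1 livers and 5.54, 6.004 and 5.06 in shRNA 2 livers. Its highest value was in shRNA 1 replicate 1 and its lowest in shRNA 2 replicate 3, so that both lines overlapped the controls. Adapted minus control was +0.12 (95% interval -0.28 to 0.53, adjusted p = 0.903 in limma). Single livers set this value: leaving out 1 at a time gave 0.0070 (without shRNA 2 replicate 2) to 0.24 (without shRNA 2 replicate 3).

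Ncf4 stood at log2 5.15, 4.86, 4.83 and 4.64 in controls, 4.73, 4.90 and 4.94 in shRNA 1 livers and 4.88, 4.51 and 4.87 in shRNA 2 livers. The groups overlapped, with an adapted minus control difference of -0.07 (95% interval -0.31 to 0.18). Its level was the nearest to the filter among the members. Rac2 was at 7.78, 7.65, 7.52 and 7.53 in controls, 7.49, 7.26 and 7.87 in shRNA 1 livers and 7.70, 7.55 and 7.35 in shRNA 2 livers. The shRNA 1 livers held both the lowest and the highest Rac2 value of all 10, and the adapted minus control difference was -0.09 (95% interval -0.35 to 0.18). It was -0.015 without shRNA 1 replicate 2 and -0.17 without shRNA 1 replicate 3.

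Whether the 5 phagocyte genes varied together from liver to liver was read from their 10 pairs, and no pair passed. Over the 10 arrays the pairs of them had Pearson correlations of -0.22 to 0.43 and Spearman correlations of -0.21 to 0.55. The smallest Benjamini-Hochberg adjusted permutation p over the pairs was 0.627. For Cybb and Cyba, the partners in the cytochrome, r was 0.40 (permutation p = 0.251, adjusted p = 0.744) and rho 0.52 (permutation p = 0.136, adjusted p = 0.627). Without the 2 arrays farthest from the Cybb median r was 0.67.

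Nox4 encodes a NADPH oxidase outside the phagocyte system, which is active without cytosolic subunits, gives off mainly hydrogen peroxide and is known in liver from stellate cells and hepatocytes. It was at log2 7.03, 6.49, 6.15 and 6.67 in controls, 5.88, 6.42 and 6.67 in shRNA 1 livers and 6.54, 6.09 and 6.25 in shRNA 2 livers. Its range over the 10 livers, 1.15, was wider than that of any other member, and the groups overlapped throughout. Adapted minus control was -0.28 (standard error 0.18, 95% interval -0.68 to 0.12, adjusted p = 0.739 in limma), -0.13 without control replicate 1 and -0.42 without control replicate 3. The 12 stellate cell and fibroblast markers had summed linear levels of 3848 to 4233 in controls, 4261 to 4478 in shRNA 1 livers and 4165 to 4736 in shRNA 2 livers. As mean log2 relative to the control mean, both lines overlapped the controls (0.013 to 0.064 and -0.038 to 0.217 against -0.072 to 0.155). Their median differences from control were +0.02 for shRNA 1 and +0.05 for shRNA 2, and 0 of 12 passed in any comparison. Their part in the Nox4 values was not tested.

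**Figure D4:**
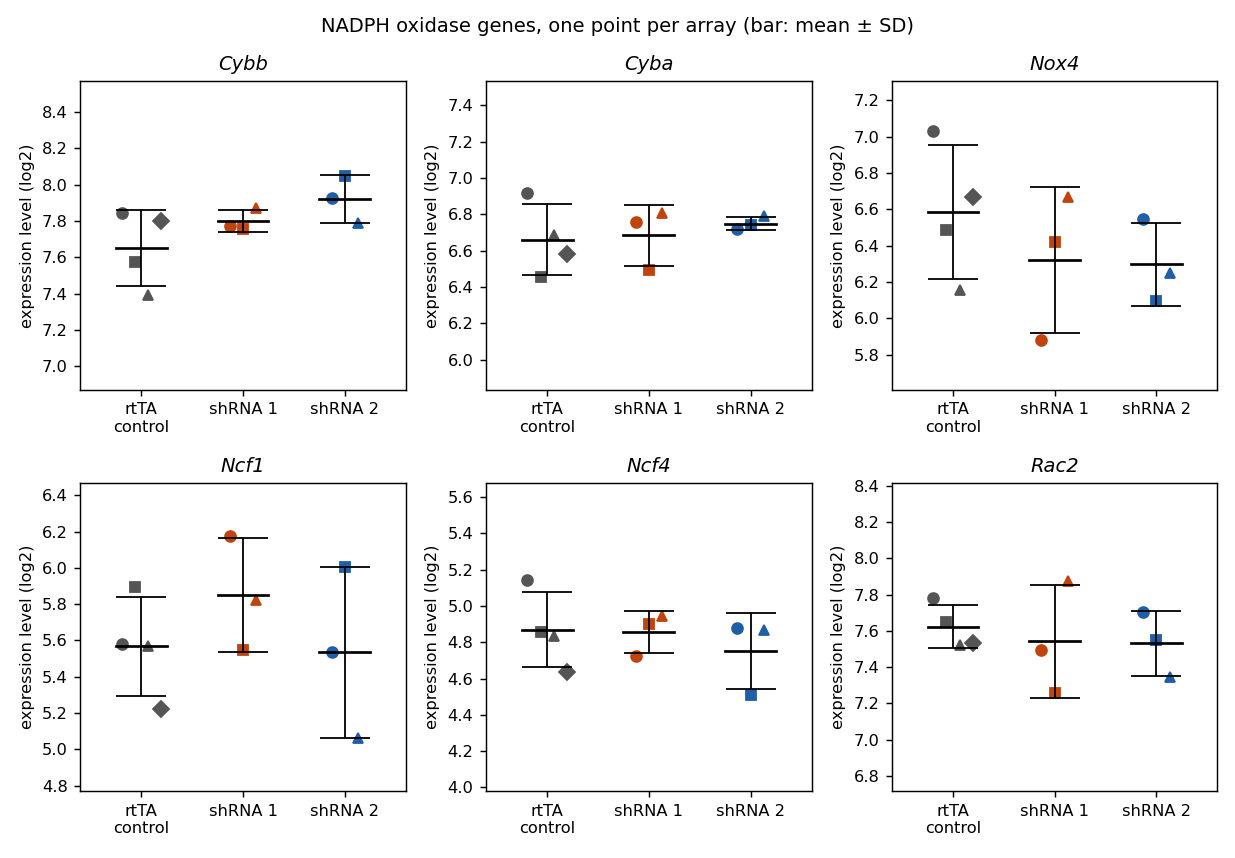
Expression levels (log2) of the 6 NADPH oxidase genes in rtTA control (n = 4), shRNA 1 (n = 3) and shRNA 2 (n = 3) livers; points are arrays, with marker shapes for replicate numbers, black bars are mean ± SD, and every panel spans the same number of log2 units. In each panel the hairpin livers overlap the controls, and Nox4 and Ncf1 have the widest spread.

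In limma 0 of the 9 members passed an adjusted p of 0.05 in adapted minus control, where 0.00751% of all genes tested passed. The count was also 0 of 9 for shRNA 1 minus control (0% of all genes), for shRNA 2 minus control (0.00751%) and for shRNA 1 minus shRNA 2 (0.015%). At an unadjusted p under 0.05 there were 2 in adapted minus control, Xdh and Aox3, against 8.37% of all genes, and the same 2 in shRNA 1 minus control, against 7.89%. There were 3 in shRNA 2 minus control, Aox1, Aox3 and Cybb, against 7.6%, and 2 in shRNA 1 minus shRNA 2, Xdh and Aox1, against 6.02%. Groups without overlap were seen for Xdh, higher in shRNA 1 livers than in controls (1 of 9, against 5.07% of all genes), and for Aox1, lower in shRNA 2 livers (1 of 9, against 3.41%). Both were higher in all shRNA 1 than in all shRNA 2 livers (2 of 9, against 5.94%). In the opposite directions no member was separate, where 3.82%, 3.88% and 5.36% of all genes were in the same order of comparisons. Between all adapted livers and all controls 0 of 9 were separate, against 1.04% of all genes higher and 0.842% lower.

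Differences were above 0 for 4 of 9 in adapted minus control (52% of all genes), 5 of 9 in shRNA 1 minus control (52.4%), 3 of 9 in shRNA 2 minus control (51.2%) and 6 of 9 in shRNA 1 minus shRNA 2 (51.1%). The median difference of the members was -0.07 in adapted minus control, +0.02 in shRNA 1 minus control, -0.09 in shRNA 2 minus control and +0.03 between the lines. Over all genes the medians were 0.01, 0.01, 0.00 and 0.00. These shares and medians were not tested.

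**Figure D5:**
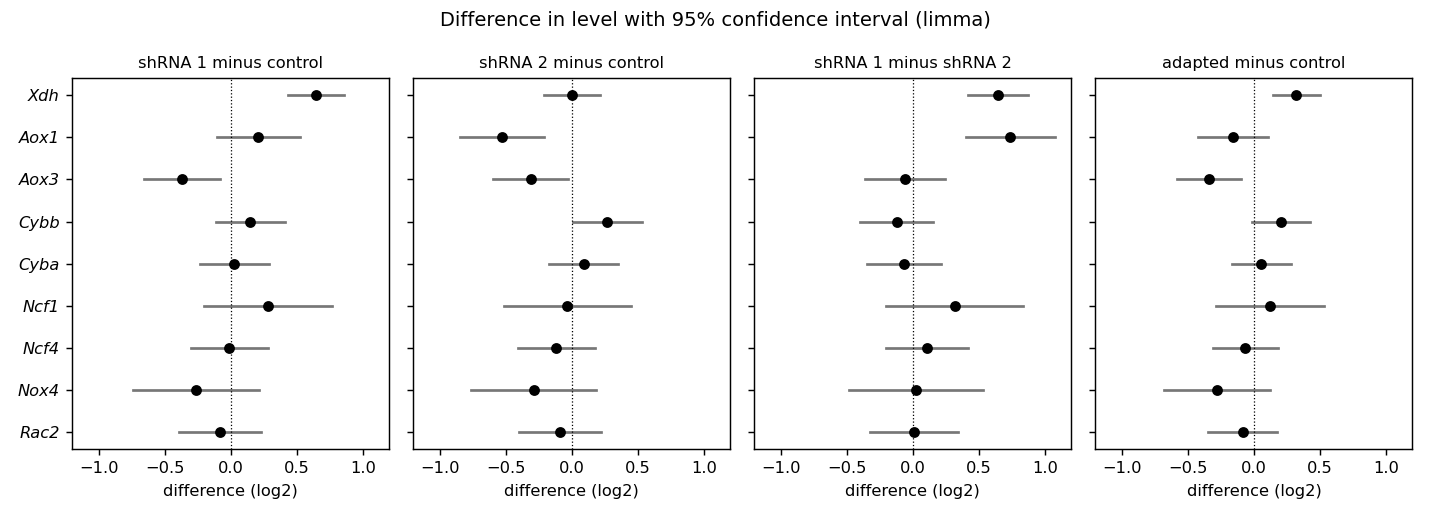
Differences in level (log2) of the 9 members in the 4 comparisons; points are limma estimates, lines are 95% confidence intervals without adjustment for the number of genes, and the dotted line marks 0. The intervals of Xdh (+0.64) and Aox3 (-0.37) exclude 0 in shRNA 1 minus control, and those of Aox1 (-0.53), Aox3 (-0.31) and Cybb (+0.27) in shRNA 2 minus control.

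Genes that act next to the members were read from lists chosen for this purpose, and 0 of their tested genes passed in any of the 4 comparisons. Molybdenum cofactor synthesis and other molybdenum enzymes had 7 of 8 genes measured and tested. Of these 7, all were above 0 in shRNA 1 minus control (median +0.13) and 3 in shRNA 2 minus control (median -0.11). Over all genes 52.4% and 51.2% were above 0, with medians of 0.01 and 0.00. At an unadjusted p under 0.05 in limma there was 1 of 7 in each line, against 7.89% and 7.6% of all genes. Mtarc1, a mitochondrial amidoxime reductase, was at +0.20 and +0.18 in the 2 lines, Suox, the sulfite oxidase, at +0.21 and +0.14, and Mocs1, the first enzyme of cofactor synthesis, at +0.08 and +0.07. Mocos, which adds the sulfur that xanthine dehydrogenase and the aldehyde oxidases need, was picked after its values were seen. It was at +0.21 in shRNA 1 and -0.28 in shRNA 2 livers, each against control. Between the lines Mocos differed by 0.49 (standard error 0.16, adjusted p = 0.687 in limma).

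Purine breakdown and urate handling, the pathway around Xdh, had 17 of 19 genes tested, with 10 above 0 in adapted minus control, against 52% of all genes. Nt5e, which makes adenosine outside the cell, had control levels of log2 7.05 ± 0.53 (SD, n = 4), against 8.13 ± 0.23 (SD, n = 3) with shRNA 1 and 7.62 ± 0.37 (SD, n = 3) with shRNA 2. Its adapted minus control difference was +0.82 (standard error 0.22, adjusted p = 0.345 in limma). Aprt, which salvages adenine, was at +0.29 (adjusted p = 0.433) and Nt5c3, a cytosolic nucleotidase, at +0.30 (adjusted p = 0.433). Uox, the urate oxidase that acts on the product of Xdh, was at 12.07 ± 0.16 (SD, n = 4), 12.04 ± 0.02 (SD, n = 3) and 12.06 ± 0.12 (SD, n = 3) in control, shRNA 1 and shRNA 2 livers, and was picked after its values were seen.

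Of 13 other NADPH oxidase genes 9 were measured and 4 tested, with 3 of 4 above 0 in adapted minus control, against 52% of all genes. Rac1, the widely expressed GTPase, was at +0.12, Noxa1, an activator of Nox1, at +0.17 and Cybc1, a chaperone of the cytochrome, at +0.08. Nox1, Nox3, Duox1, Duox2 and Duoxa1 lay below the level filter. For superoxide and peroxide disposal 10 of 13 genes were tested and 5 were above 0. Prdx3, the mitochondrial peroxiredoxin, was at +0.24 (adjusted p = 0.521), Prdx4, that of the endoplasmic reticulum, at +0.10 and Prdx2, a cytosolic one, at +0.10. Ccs, the copper chaperone of Sod1, picked after its values were seen, was at -0.10. Among 10 tested genes of other oxidases, Maob, which oxidises amines in the outer mitochondrial membrane, was at +0.37 (standard error 0.09, adjusted p = 0.297 in limma), with +0.39 in shRNA 1 and +0.34 in shRNA 2 livers. Ddo, the D-aspartate oxidase, was at +0.23 and Hao1, the glycolate oxidase, at -0.24.

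Genes whose levels followed a member most closely over the 10 arrays were taken as the highest Pearson correlations among 13307 candidates, so they are a description. For Xdh they were Anp32a (r = 0.963, rho = 0.842), Ephx1, the microsomal epoxide hydrolase (r = 0.957, rho = 0.891), and Cwf19l1 (r = 0.952, rho = 0.891). Without the 2 arrays farthest from the Xdh median these were 0.930, 0.961 and 0.987. For Aox1 they were Fam174b (r = 0.933), Bcl2l1 (r = 0.928) and Pigv (r = 0.919), and for Aox3 C9, a complement component (r = 0.934), Lama3 (r = 0.921) and Mtif2 (r = 0.905). The best partner of the typical tested gene had r = 0.935 (median over genes), and the best partners of the 9 members had 0.893 to 0.963. The closest partners of the NADPH oxidase genes, in the same sense, were Mill2 for Cybb, Slc2a8 for Cyba, Gskip for Ncf1, Ndufa5 for Ncf4, Grb2 for Nox4 and Tmem175 for Rac2.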

How the data were processed

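The deposited values are log2 expression per transcript cluster, 1 array per sample, made by the authors with Affymetrix Expression Console, per the submitters' processing notes. Not given in the sources used here are its version, background correction, normalization and genome build. The values ran from 1.40 to 13.82, which fits a log2 scale. Precision is limited by the number of arrays.

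Of 41345 clusters, 23521 had 1 gene symbol, 1814 several and 16010 none. The cluster with the highest mean stood for a gene (22180 genes), and genes with a mean of at least log2 3.98, the 40th percentile, were tested (13308). One fit over 10 arrays (lmFit, contrasts.fit, eBayes; limma 3.58.1, R 4.3.3) gave 4 two-sided comparisons, adjusted over all 13308 genes at 0.05; adapted is the mean of both line means. The fit was checked on simulated data of independent genes, with planted log2 differences of 1 in shRNA 1 livers. Those exceed every member difference, so the check does not cover the sizes reported here. Members and lists were chosen with earlier results of these data known. All members were named, Sod2, up to 3 genes per list by the largest statistic in adapted minus control, and 3 best correlated genes per member. Marker sums add linear values. Permutations of correlations used 100000 resamples. Alternatives are given in the closing section. Figures used Python 3.11.15 and matplotlib 3.10.9.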

Additional observations from a re-analysis of the deposited data

How the results depend on the processing

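Under 19 alternatives per comparison, 0 members passed in adapted minus control and in shRNA 2 minus control. In shRNA 1 minus control 1 member, Xdh, passed with a stricter level filter (60th percentile), with averaged clusters of a gene, with array weights and with a robust prior that follows intensity (the trend), and 0 to 1 with a liver left out. In shRNA 1 minus shRNA 2 it was 1 with that trend (0 to 0 with a liver left out). Ncf4 was not tested with the stricter filter.

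Counts over all genes moved more. Adapted minus control had 1 call, and 0 with the stricter filter or with the lines as 1 group, 6 with the trend, and 1 to 3 leaving out livers (3 without control replicate 1, 2 without control replicate 4). shRNA 1 minus control had 0, and 8 with quantile normalization, 15 with the stricter filter, 7 with averaged clusters, 19 with array weights, 30 with the trend, and 0 to 11 leaving out livers (2 and 9 without control replicates 1 and 4, 1 and 11 without replicates 2 and 3 of shRNA 2). shRNA 2 minus control had 1, and 0 with the stricter filter and 1 to 3 leaving out livers (3 without control replicate 1, 2 without control replicate 4). shRNA 1 minus shRNA 2 had 2, and 3 with median centring, 1 with quantile normalization or the stricter filter, 6 with array weights and 7 with the trend. Leaving out livers gave 1 to 4 (4 without control replicate 4, 1 without any single one of control replicates 2 and 3 and the 6 hairpin livers). The cause was not tested.

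With the replicate number as a block, shRNA 1 minus shRNA 2 had 4 calls over all genes, Xdh in shRNA 1 minus control was +0.69 (adjusted p = 0.110), and no member passed. Deviations of same-numbered livers from their group means had correlations of -0.25 to 0.27 over 9 pairs. For differently numbered livers of 2 groups the range was -0.28 to 0.27, and both sets held pairs with r over 0.1. Whether same-numbered livers share more than a number was not tested.

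Signs turned only for small differences that had not passed. Xdh in shRNA 2 minus control was -0.015 with quantile normalization, Cyba in shRNA 1 minus control -0.00086 with the block, and Rac2 in shRNA 1 minus shRNA 2 -0.019 with array weights. Leaving out livers, adapted minus control ranged over -0.011 to 0.14 for Cyba and -0.14 to 0.027 for Ncf4. In shRNA 1 minus control the range was -0.044 to 0.12 for Cyba, -0.089 to 0.079 for Ncf4 and -0.25 to 0.061 for Rac2. In shRNA 2 minus control it was -0.067 to 0.050 for Xdh, -0.27 to 0.20 for Ncf1, -0.19 to 0.0020 for Ncf4 and -0.18 to 0.0023 for Rac2. In shRNA 1 minus shRNA 2 it was -0.17 to 0.047 for Aox3, -0.13 to 0.031 for Cyba, -0.015 to 0.17 for Ncf4, -0.15 to 0.25 for Nox4 and -0.16 to 0.15 for Rac2.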
